A study of Homo sapiens with 4 samples.

Results

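MET, which encodes the receptor tyrosine kinase for hepatocyte growth factor, and 8 genes that lie beside it on chromosome band 7q31 were followed through the H3K14ac peaks of MKN45, an established human gastric cancer cell line. The 9 genes were TES, CAV2, CAV1, MET, CAPZA2, ST7, WNT2, ASZ1 and CFTR, of 20037 protein-coding genes in the RefSeq table. A peak was assigned to a gene when it overlapped the gene's span extended by 10 kb on both sides. This gave 35 of 28187 peaks in cells carrying a short hairpin RNA against NIT2 (shNIT2) and 33 of 39876 peaks in cells carrying the control hairpin (shNT). The rule takes the genes by name and their peaks by position, and uses no peak value.

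The study profiled H3K14ac, acetylation of lysine 14 on histone H3, by chromatin immunoprecipitation and sequencing (ChIP-seq). Each hairpin had 1 H3K14ac library and 1 input library, made from the same cell line without antibody. Peak lists of the H3K14ac libraries were analysed, and values of the inputs were not analysed here. With 1 library per condition no difference between shNIT2 and shNT could be tested, and every comparison below describes those libraries. Both groups share the MKN45 background. The sources used here do not give the number of hairpins, nor whether the cells were a pool or 1 clone. The peak lists hold no measure of NIT2 itself, so the hairpin labels were not checked.

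MET signals from the cell surface into the RAS, PI3K and STAT3 pathways and drives growth, motility and scattering of epithelial cells. Its locus is amplified in some gastric cancers, and MKN45 is known as a line with MET amplification. Extra copies of a stretch of DNA give extra fragments in any ChIP or input library, in the peaks and between them. Acetylated H3K14 is found mainly at active promoters and enhancers. Copy number was not measured here. Among the neighbours, CAV1 and CAV2 encode caveolins, the coat proteins of caveolae, TES encodes the focal adhesion protein testin, and CAPZA2 encodes a subunit of the actin capping protein. WNT2 encodes a secreted WNT ligand, ASZ1 a protein of the germline piRNA pathway, and CFTR the chloride channel that is mutated in cystic fibrosis.

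The promoters of MET, TES, CAPZA2, CAV1 and WNT2 are shown because they carry the arrangement of H3K14ac at the starts described below. Each window runs from 250 bases before to 50 bases after a start in RefSeq (GRCh38.p14), 5′ to 3′ in the direction of transcription, and capitals mark the bases under a shNIT2 peak. The window of CAV1 is at the outermost of its 3 listed starts, and that of TES at the outermost of 2.
MET, chr7:116671946-116672245, plus strand: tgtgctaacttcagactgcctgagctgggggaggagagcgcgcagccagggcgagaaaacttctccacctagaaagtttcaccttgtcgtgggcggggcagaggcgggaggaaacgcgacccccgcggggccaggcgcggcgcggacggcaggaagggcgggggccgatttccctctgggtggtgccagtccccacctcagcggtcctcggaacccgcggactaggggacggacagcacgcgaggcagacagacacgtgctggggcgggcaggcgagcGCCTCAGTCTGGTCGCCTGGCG
TES, chr7:116210289-116210588, plus strand: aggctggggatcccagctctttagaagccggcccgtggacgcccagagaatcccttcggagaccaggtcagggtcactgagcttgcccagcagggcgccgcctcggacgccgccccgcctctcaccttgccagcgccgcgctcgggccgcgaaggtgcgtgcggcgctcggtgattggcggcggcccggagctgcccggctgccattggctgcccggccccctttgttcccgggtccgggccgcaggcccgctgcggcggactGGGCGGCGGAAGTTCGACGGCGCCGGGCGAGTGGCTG
CAPZA2, chr7:116862337-116862636, plus strand: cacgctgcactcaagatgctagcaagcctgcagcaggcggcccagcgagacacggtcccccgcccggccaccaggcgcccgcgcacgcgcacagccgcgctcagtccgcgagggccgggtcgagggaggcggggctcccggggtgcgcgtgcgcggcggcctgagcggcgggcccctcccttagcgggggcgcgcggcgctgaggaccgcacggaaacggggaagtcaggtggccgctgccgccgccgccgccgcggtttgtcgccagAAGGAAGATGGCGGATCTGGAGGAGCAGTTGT
CAV1, chr7:116524759-116525058, plus strand: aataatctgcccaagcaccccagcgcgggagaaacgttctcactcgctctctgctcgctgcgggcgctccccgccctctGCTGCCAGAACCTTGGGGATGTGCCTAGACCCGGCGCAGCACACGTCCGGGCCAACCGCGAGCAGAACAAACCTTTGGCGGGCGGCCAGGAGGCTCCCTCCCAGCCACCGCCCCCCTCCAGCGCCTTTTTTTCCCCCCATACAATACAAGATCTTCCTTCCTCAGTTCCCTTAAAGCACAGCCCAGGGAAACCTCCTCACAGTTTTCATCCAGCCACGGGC
WNT2, chr7:117323009-117323308, minus strand: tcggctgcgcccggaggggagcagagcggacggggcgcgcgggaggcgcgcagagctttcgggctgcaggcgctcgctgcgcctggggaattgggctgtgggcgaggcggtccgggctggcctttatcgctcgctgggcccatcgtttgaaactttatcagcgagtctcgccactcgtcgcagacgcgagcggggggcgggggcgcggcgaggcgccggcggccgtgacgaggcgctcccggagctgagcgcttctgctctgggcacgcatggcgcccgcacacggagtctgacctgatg

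In the windows of MET, TES and CAPZA2 the capitals begin only past the start, so that 22, 37 and 32 of the 300 bases lie under a shNIT2 peak. In the CAV1 window 221 bases are covered, and in the WNT2 window 0. None of these 5 windows overlaps a shNT peak. All 5 are rich in G and C, with 69.3% in MET, 74.3% in TES, 75.3% in CAPZA2, 62.3% in CAV1 and 72.7% in WNT2, beside a median of 58.7% over 35116 promoter windows. The unmarked WNT2 window has 43 CpG dinucleotides, as many as the marked CAPZA2 window, and the MET window has 30. GGGCGG, searched on both strands, occurs 3 times in the MET window, 2 times in TES, once in CAPZA2, 3 times in CAV1 and once in WNT2, and 45.0% of all promoter windows hold it at least once. CACGTG occurs once in the MET window and in 7.26% of all windows. A match describes the letters in the window and shows no bound factor.

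H3K14ac peaks were found at 7 of the 9 genes in shNIT2 cells (54.9% of all genes had one) and at 5 of the 9 in shNT cells (38.6% of all genes). MET carried the most in both, with 16 shNIT2 peaks and 12 shNT peaks. In shNIT2 cells ST7 had 7, TES 5, CAV1 3, CAV2 2, CAPZA2 2 and CFTR 1, and 1 peak between CAV2 and CAV1 counts for both. In shNT cells ST7 had 9, CAPZA2 8, TES 2 and CAV2 2, and CAV1 and CFTR had none. WNT2 and ASZ1 had none in either list. Peaks in both lists were thus present at TES, CAV2, MET, CAPZA2 and ST7 (27.4% of all genes), and in the shNIT2 list alone at CAV1 and CFTR (27.5% of all genes). Of all genes with a peak, MET ranked 46th by number of peaks in shNIT2 cells and 12th in shNT cells. Long genes and wide peaks give more overlaps. The peaks covered 20.6% of the extended MET span in shNIT2 cells and 3.16% in shNT cells, and their median width over the 9 genes was 1382 bp in shNIT2 cells and 296 bp in shNT cells.

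Each peak is described by the fragment pileup at its summit, the local background under it and the fold between them. The fold is the authors' own value, with a pseudocount of 1 added to pileup and background, and is used only within a list. Pileup and background were solved from that fold and the authors' −log10 p. The lists differ in depth: the lowest background, called the floor, was 2.48 fragments in the shNIT2 list and 0.278 in the shNT list, which is 8.93 times higher in shNIT2. The median pileup of all peaks was 22 fragments in shNIT2 cells and 6 in shNT cells. Background is therefore given as a multiple of the floor of its own list. Pileup intervals are exact Poisson 95% intervals and cover counting error only.

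At the start of MET, shNIT2 cells had 607 fragments (560 to 657) over a background of 49.9, in a peak at chr7:116672224-116675117 that begins 28 bp past the start. This was the second highest of 28187 summit pileups, and its fold of 11.9 ranked 1036th. In shNT cells the start peak, chr7:116672370-116672890, had 26 fragments (17.0 to 38.1) over a background of 4.96. The summits of these peaks lay 25 bp apart. A further shNIT2 peak upstream, chr7:116670094-116671858, had 296 fragments over 60.4. Between the pair of shNIT2 peaks a gap of 365 bp, chr7:116671859-116672223, holds the start itself and all but 22 bases of the printed MET window.

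The start peaks of 5 neighbours also had high pileups in shNIT2 cells. TES had 530 fragments in shNIT2 cells, the fourth highest pileup of the list, and 25 in shNT cells. CAV2 had 409 in shNIT2 cells, and in shNT cells a pair of start peaks with 16 fragments each. CAV1 had 365 in shNIT2 cells, the tenth highest pileup, and no peak in shNT cells. CAPZA2 had 280 in shNIT2 cells and 25 in shNT cells. ST7 had 282 in shNIT2 cells and no start peak in shNT cells. In all, 6 of the 9 genes had a shNIT2 peak within 1 kb of a listed start (39.3% of 15843 genes with a listed start), and 4 of the 9 had a shNT peak there (6.16%). WNT2, ASZ1 and CFTR had no start peak in either list.

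The position of the peak edge differed among the 6 genes. At TES, CAPZA2 and MET the shNIT2 peak began 13, 18 and 28 bp past the start, whereas at CAV2, CAV1 and ST7 it covered the outermost start. Over all 5920 genes with a shNIT2 peak within 1 kb of their first listed start, 71.8% had a peak that begins past the start, 8.65% one that begins within 50 bp past it, and 15.8% had the start covered. A peak that begins past the start is thus the common case. In shNT cells the peak began 96 bp past the start at TES, 254 bp at CAPZA2 and 174 bp at MET, and 62.8% of the 873 genes with a shNT peak within 1 kb had one that begins past the start.

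**Figure D1:**
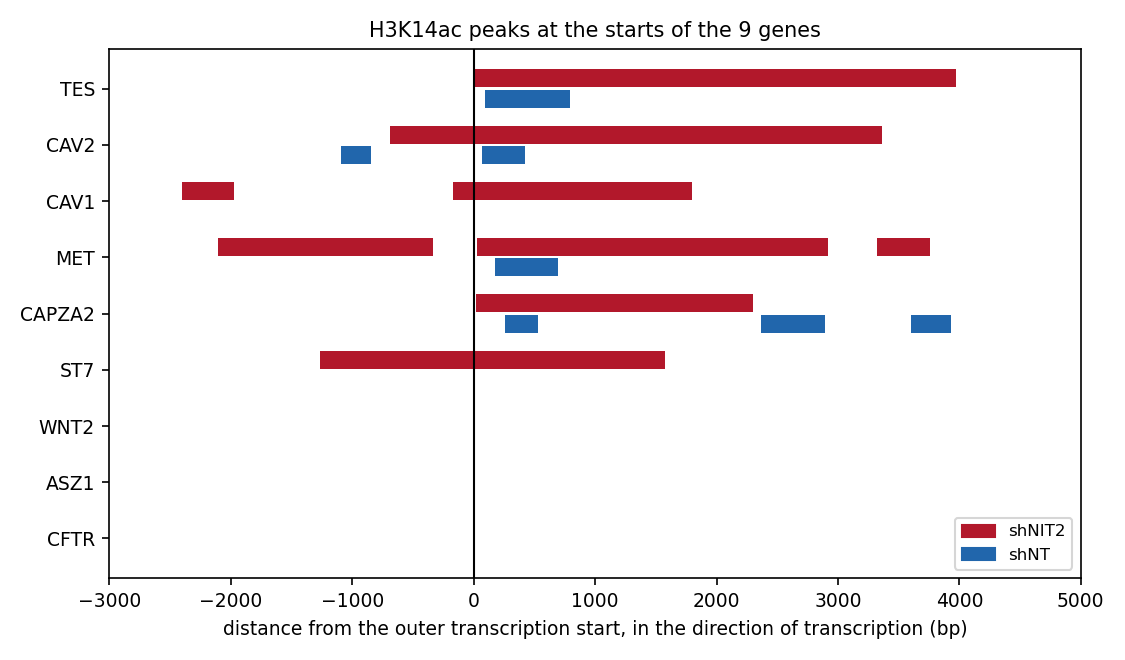
Position of H3K14ac peaks around the outermost start of each of the 9 genes, with distance in bp in the direction of transcription on the x axis and 1 row per gene (red, shNIT2; blue, shNT). TES, CAPZA2 and MET have a shNIT2 peak that begins 13 to 28 bp past the start, CAV2, CAV1 and ST7 have one across it, and WNT2, ASZ1 and CFTR have none.

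The highest pileup of the whole shNIT2 list was not at a promoter but inside MET. The peak chr7:116772840-116779448 had 894 fragments (836 to 955) over a background of 72.8, with a fold of 12.1 and a −log10 q of 611, and its summit lay 105 kb past the start. Next to it chr7:116770735-116772536 had 576 fragments (530 to 625) over 81.5 and the third highest pileup. Together they span 8714 bp, from 98.5 to 107 kb past the start. Exons and introns are not in the gene table used, so neither peak was assigned to one. Shorter shNT peaks lay in the same stretch. The strongest, chr7:116775315-116775947, had 38 fragments (26.9 to 52.2) over 5.40 and the highest pileup of the 33 shNT peaks, but ranked 986th in its list. A second, at chr7:116771915-116772240, had 23 fragments, and the other shNT peaks there had 18 and 21.

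Apart from these, MET carried weaker peaks along its length. In shNIT2 cells a peak of 6395 bp, chr7:116705921-116712315, had 232 fragments over 59.3, and the last one within 10 kb of the gene end, chr7:116807903-116809595, had 281 over 76.1. The remaining 10 shNIT2 peaks had 91 to 178 fragments. In shNT cells the peaks had 14 to 38 fragments. Of the 16 shNIT2 peaks of MET, 4 overlapped a shNT peak by at least 1 bp (11.7% of all shNIT2 peaks). Of the 12 shNT peaks, 6 overlapped a shNIT2 peak (9.06% of all shNT peaks). Several of these 6 lay in the same wide shNIT2 peak, chr7:116772840-116779448, so they are not separate overlaps.

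**Figure D2:**
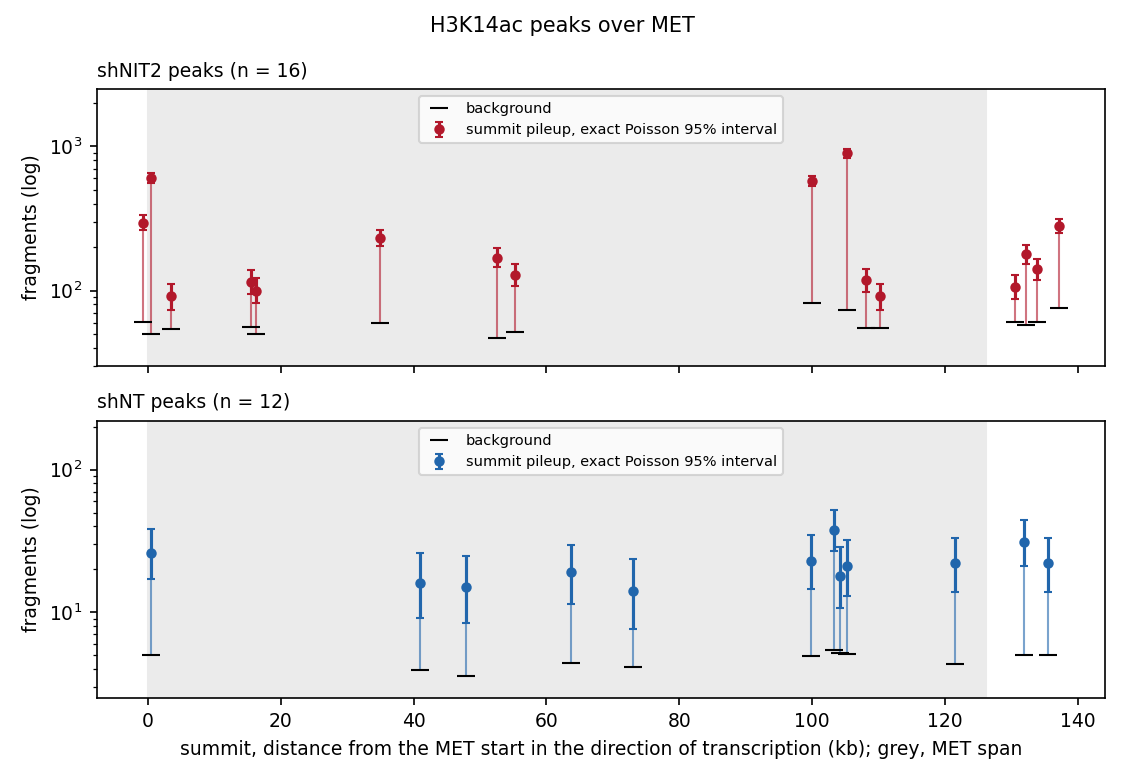
Summit pileup (points, with exact Poisson 95% intervals) and local background (black dashes) of each peak assigned to MET, in fragments on a log axis whose range differs between the panels, against distance of the summit from the MET start in kb (upper panel shNIT2, 16 peaks; lower panel shNT, 12 peaks; grey, MET span). The highest points in shNIT2 cells stand at the start and near 105 kb, and the highest in shNT cells, with 38 fragments, stands in the same stretch near 103 kb.

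The 10 kb limit cuts through a run of peaks past the end of MET. Just inside it, 9.53 kb past the gene end, lay the shNIT2 peak of 281 fragments with a background of 30.7 times the floor. Just outside, 11.6 and 12.6 kb past the end, shNIT2 peaks had 460 and 474 fragments, with backgrounds of 37.3 and 29.6 times the floor. In shNT cells the peak just inside had 22 fragments, and the one 12.8 kb past the end had 55 fragments, more than any shNT peak within the limit.

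ST7, at the far side of CAPZA2, had 7 shNIT2 peaks of 61 to 282 fragments and 9 shNT peaks of 12 to 20. None of them overlapped a peak of the other list, where 11.7% of all shNIT2 peaks and 9.06% of all shNT peaks did. With so few peaks, none is near those shares. Of the shNIT2 peaks of ST7, 4 lay within 1 kb of one of its 3 listed starts, and no shNT peak did. ST7 and CAPZA2 were the only ones of the 9 genes with fewer shNIT2 than shNT peaks. CAPZA2 had 2 shNIT2 peaks, of 280 and 63 fragments, and 8 shNT peaks, of 13 to 26 fragments. CFTR carried a single shNIT2 peak, chr7:117630676-117631169, at 79.9% of the way through the gene, with 45 fragments (32.8 to 60.2) over a background of 17.2. The shNIT2 peak nearest to the start of WNT2 lay 26.8 kb away, with 60 fragments.

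Of the 35 shNIT2 peaks, 8 overlapped a shNT peak, or 22.9% (exact Clopper-Pearson 95% interval 10.4 to 40.1), beside 11.7% of all shNIT2 peaks. Of the 33 shNT peaks, 10 overlapped a shNIT2 peak, or 30.3% (15.6 to 48.7), beside 9.06% of all shNT peaks. These intervals also cover counting error only. They take peaks as independent, which neighbouring peaks of the same locus may not be, and do not test a difference from the shares of the lists. The shNIT2 peaks of the 9 genes were also wider, with a median of 1382 bp beside 573 bp in the whole list. Wider peaks overlap more, and this was not adjusted for. No pair reached a reciprocal overlap of 50%. The 10 overlapping pairs lay at TES, CAV2, MET and CAPZA2, and 3 of them share the strongest shNIT2 peak of MET. Their summit pileups were a median 23.4 times higher in shNIT2 than in shNT, from 3.64 to 49.7 times. Among 153 pairs elsewhere whose shNT pileup lay in the same range of 16 to 38 fragments, the median was 5.65 times, from 0.474 to 20.3. The background under the pairs was a median 11.1 times higher in shNIT2 at the 4 genes and 11.6 times elsewhere. The pairs were matched on shNT pileup and not on background, and what depth and background contribute was not tested. The shNT pileup was a median 4.95 times its background at the 4 genes and 34.5 times elsewhere. In shNIT2 it was 9.56 and 15.3 times, so the pileup ratios of 23.4 and 5.65 do not compare like peaks.

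Set beside the rest of the shNIT2 list, the peaks of the 9 genes had high pileups and, for the most part, low folds. The 35 shNIT2 peaks had a median of 128 fragments (45 to 894) and a median fold of 2.47 (1.66 to 12.1), where the whole list had medians of 22 fragments and 4.21. Of the 20 highest shNIT2 pileups, 9 belonged to the 9 genes, and 0 of the 100 highest folds did. Of the 58 shNIT2 peaks with a fold under 2, which is 0.206% of the list, 12 belonged to the 9 genes and 45 lay on chromosome 7. In shNT cells the 33 peaks had a median of 18 fragments (12 to 38), where the whole list had a median of 6, and a median fold of 4.12 (2.93 to 6.09), where the whole list had 4.78. None of them was among the 20 highest pileups of that list.

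**Figure D3:**
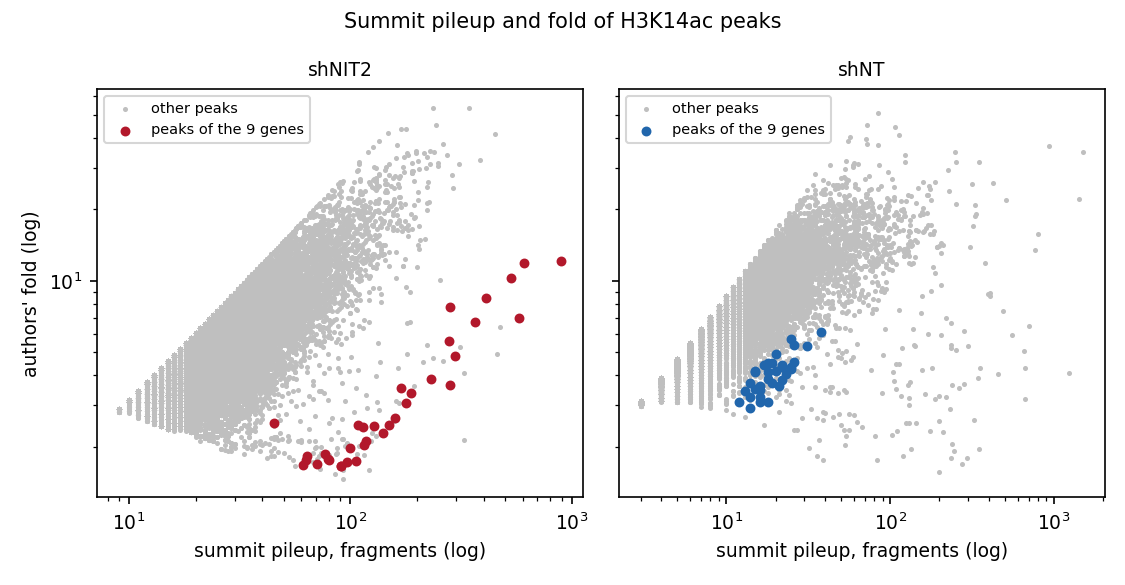
The authors' fold (log axis) against the summit pileup in fragments (log axis) for every peak with a solved pileup, shNIT2 left and shNT right, with peaks of the 9 genes coloured and all others grey. The coloured shNIT2 peaks run along the lower right edge of the cloud, with pileups of 45 to 894 fragments and folds of 1.66 to 12.1.

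The background that divides these pileups was high at every peak of the 9 genes. Its median was 20.8 times the floor (6.95 to 32.9) over the 35 shNIT2 peaks and 14.5 times (10.2 to 19.5) over the 33 shNT peaks. By gene, the median in shNIT2 cells was 22.9 at MET, 22.1 at TES, 21.6 at CAV1, 17.8 at CAV2, 17.1 at CAPZA2, 16.7 at ST7 and 6.95 at CFTR. In shNT cells it was 17.8 at MET, 16.7 at TES, 15.8 at CAV2, 13.6 at CAPZA2 and 11.6 at ST7. MET stood first among the 9 genes in both lists and CFTR, the gene farthest from it with a peak, stood last in shNIT2 cells. In shNIT2 cells the single peaks of MET ranged from 19.0 to 32.9 and those of ST7 from 13.9 to 18.8, which do not overlap, and the peak of CFTR lay below both. The ranges of TES, CAV1, CAV2 and CAPZA2 overlapped that of MET, so the order among these 5 genes is not separated by the spread of their peaks. In shNT cells the ranges of MET, 12.9 to 19.5, and ST7, 10.2 to 13.3, did overlap.

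Set beside all genes with a peak, those values were far up the scale. A median background of at least 3 times the floor was found at 7 of 7 of the genes with a shNIT2 peak (4.68% of all genes with one) and at 5 of 5 with a shNT peak (1.13%). At least 10 times the floor was reached by 6 of the 7 in shNIT2 cells (0.0999%, 11 genes in all, every one on chromosome 7) and by 5 of 5 in shNT cells (0.116%, 9 genes, 8 of them on chromosome 7). By this measure MET ranked second of 11008 genes in shNIT2 cells and first of 7726 in shNT cells. The median over all genes was 1.58 in shNIT2 cells and 1.18 in shNT cells. High background was also present in the gaps between the genes: the 30 shNIT2 peaks that lie between them had a median of 21.4 times the floor, and the 13 such shNT peaks 15.3 times.

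**Figure D4:**
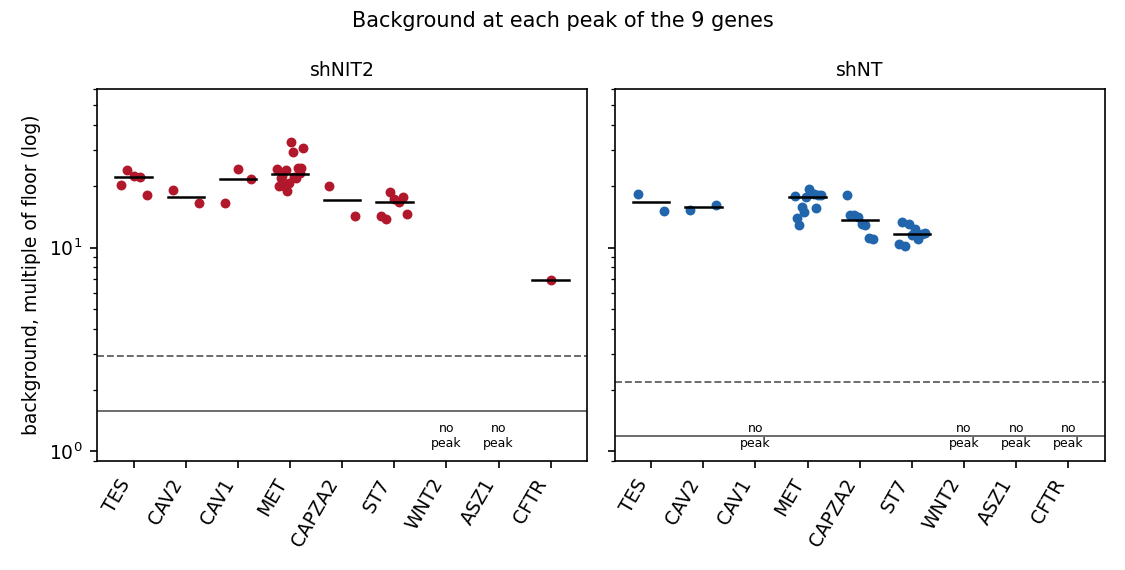
Background at each peak of the 9 genes as a multiple of the list's floor (log axis), shNIT2 left and shNT right, with genes in order along the chromosome. Short bars are gene medians, the solid line is the median and the dashed line the 95th percentile over all genes with a peak (1.58 and 2.95 in shNIT2, 1.18 and 2.18 in shNT). Every plotted peak lies above the dashed line of its list.

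The extent of the raised background depended on the level asked for. Going outward from MET until 3 consecutive peaks fell below 3 times the floor, the raised stretch ran over chr7:114759136-122285670 in shNIT2 cells, 7.53 Mb with 126 of 126 peaks raised, and over chr7:113818775-122277778 in shNT cells, 8.46 Mb with 99 of 99. No shNIT2 peak lay between 1.51 and 4.07 Mb past the MET start, so the shNIT2 background was not measured there. The shNIT2 stretch is joined across that gap by the rule alone. The shNT peaks in the gap had backgrounds of 3.05 to 9.07 times the shNT floor. At 5 times the floor the stretch stayed at 7.53 Mb in shNIT2 cells and was 2.11 Mb in shNT cells. At 10 times the floor it was 1.68 Mb in shNIT2 cells and 0.993 Mb in shNT cells, and both of these hold TES, CAV2, CAV1, MET and CAPZA2. In steps of 250 kb, the shNIT2 median was 6.95 to 11.8 from 2 to 0.75 Mb before MET, 20.5 to 22.4 from 0.75 Mb before to 0.25 Mb past its start, 16.7 in the next step, and 11.1 and 6.95 in the following ones. The last of these steps holds the peak in CFTR and no other shNIT2 peak. The steps at 20.5 and 11.1 also held 1 shNIT2 peak each. Which fragments the peak caller counted as background, those of the input or of the ChIP library itself was not stated in the labels, so copy number and broad ChIP signal cannot be told apart.

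**Figure D5:**
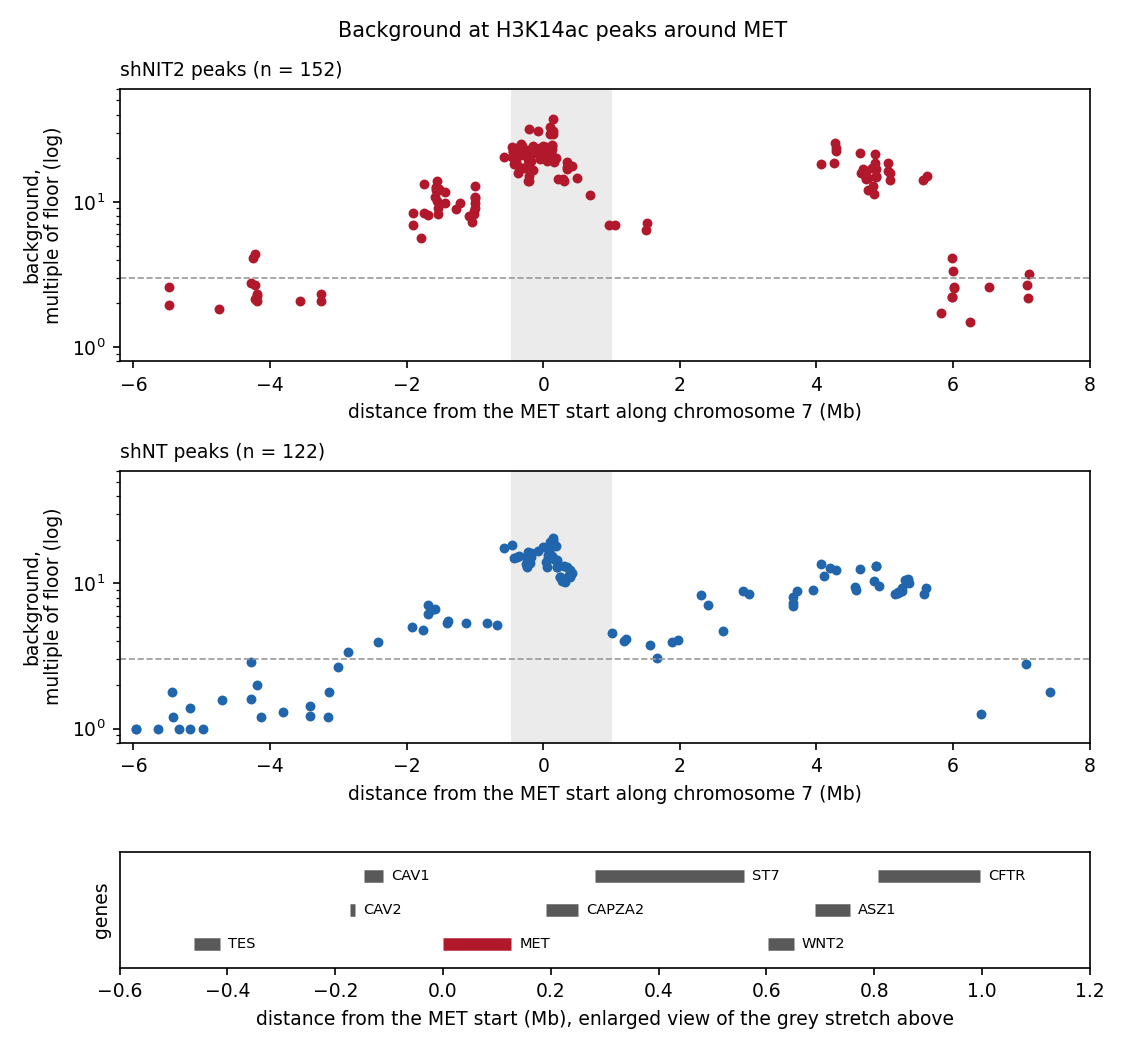
Background at the chromosome 7 peaks around MET, those with a summit between −5.96 and 7.42 Mb from its start, as a multiple of the list's floor (log axis) against distance from that start in Mb (upper panel shNIT2, 152 peaks; middle panel shNT, 122 peaks). The dashed line marks 3 times the floor, the grey band the stretch from TES to CFTR, and the lower panel enlarges that stretch to show the 9 genes. Both lists are highest around MET and lower on either side. The shNIT2 list is higher again from 4.07 Mb past the MET start, after a gap without peaks. The shNT list is higher again before that, with 7.02 to 9.07 times the floor from 2.92 to 3.95 Mb.

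Of the 7 other protein-coding genes within 3 Mb of MET, TFEC had the highest background. This gene, next to TES, encodes a transcription factor of the MITF family. It had 20.5 times the floor over 1 shNIT2 peak and 11.4 over 2 shNT peaks, which lay far apart at 5.14 and 17.7. MDFIC had 8.44 over 3 shNIT2 peaks and 6.55 over 3 shNT peaks. On the CFTR side CTTNBP2 had 6.95 over 1 shNIT2 peak and 4.10 over 2 shNT peaks. LSM8, which encodes a subunit of the U6 small nuclear ribonucleoprotein, had 6.82 over 2 shNIT2 peaks and no shNT peak. FOXP2 and ANKRD7 had a shNT peak alone, at 3.97 and 3.77 times the floor, and PPP1R3A had no peak in either list. Outside chromosome 7, the genes with at least 3 shNIT2 peaks whose background came closest to that of MET were LGR4, DYRK2, ADGRF1, CEP295 and AMN1. LGR4 on chromosome 11 had 9.39 times the floor in shNIT2 cells (log2 difference from MET −1.29) and 6.91 in shNT cells, and the other 4 had 4.32 to 7.20 in shNIT2 cells and 2.98 to 4.83 in shNT cells. This likeness is measured over 1 library.

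Genes that act with MET mostly lay on a background near that of all genes. Of 35 genes of the MET pathway, 21 had a peak in both lists (27.4% of all genes), 13 in the shNIT2 list alone (27.5%) and 1 in the shNT list alone (11.2%). That 1 was HGF, the ligand of MET, which had no shNIT2 peak and 1 shNT peak on a background of 1.21 times the floor. Among the proteins that control the ligand, HGFAC, a protease that activates HGF, had the highest shNIT2 fold of the list at 31.6, on a background at the floor. Downstream, SOS1, which loads RAS with GTP, had a fold of 14.6 and SRC, a cytoplasmic kinase, 12.9. Each fold is the highest within 10 kb of the gene, so the peak may belong to a neighbouring gene. HGFAC had only 1 shNIT2 peak. The median background of the list was 1.58 times the floor in shNIT2 cells and 1.49 in shNT cells. MUC20, a mucin that binds MET, had the highest of the list, with 7.98 in shNIT2 cells and 4.77 in shNT cells, over 1 peak each. Among 12 genes often amplified in gastric cancers, the median was 1.93 in shNIT2 cells and 1.65 in shNT cells. The highest of the 12 was MDM2, an inhibitor of p53, with 3.91 in shNIT2 cells and 3.39 in shNT cells, far below the values at MET.

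As a check of the cell type, 9 of 10 epithelial marker genes had a peak in both lists (27.4% of all genes) and 1 in the shNIT2 list alone (27.5%). Of 10 markers of other cell types, 3 had a peak in both lists, 2 in the shNIT2 list alone, 1 in the shNT list alone (11.2% of all genes) and 4 in neither, which is near the shares over all genes. A start was listed for 5 of the epithelial markers. Within 1 kb of it, 5 had a shNIT2 peak (39.3% of genes with a listed start) and 1 a shNT peak (6.16%). Of the 3 other markers with a listed start, 0 had a peak there in either list. The sets are small and were not tested against those shares. The 3 other markers with a listed start are too few to be told apart from them. A peak within 10 kb may belong to a neighbouring gene.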

How the data were processed

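H3K14ac was profiled in shNIT2 and shNT MKN45 cells, with 1 ChIP and 1 input library each. Per the submitters' processing notes, the build was hg38 and the tools included MACS2 2.1.1, Bowtie2 2.2.6, Trimmomatic 0.35 and cutadapt 1.9.1. The deposited lists give, per peak, a score, a fold (a ratio with a pseudocount of 1), a −log10 p and q, and the summit position. The smallest −log10 q corresponds to a q threshold of 0.05. The use of the inputs and the treatment of duplicates are not given in the sources used here.

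The authors' −log10 p and fold of each peak were solved for summit pileup and background under a Poisson upper tail (tolerance 0.1%), which left 4 shNT peaks unsolved. The solution was tested on simulated data. Genes, starts and promoters came from RefSeq tables of GRCh38.p14, whose coordinates are those of hg38. Peaks overlapped a gene or each other from 1 bp. Analysis used Python 3.11.15, numpy 2.4.6, pandas 2.3.3 and scipy 1.17.1. The genes, lists and rules were chosen with earlier results of these data known. Named beside the 9 genes were those within 3 Mb of MET, the 5 most like MET outside chromosome 7, and the 3 highest folds of its pathway list; some results of the gene lists are not reported here. Alternatives varied the gene span, peak thresholds, overlap, background scale, raised-stretch rule and start window. Fragments are not independent molecules, as PCR copies may be among them, and library read totals were not used here, so intervals cover counting error only.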

Additional observations from a re-analysis of the deposited data

How the results depend on the processing

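Of 35 alternatives, 25 left the value within 1.5 times that reported. Extending the gene spans by 50 kb gave 56 shNIT2 peaks in place of 35. A −log10 q of at least 5 left 17 of the 33 shNT peaks. A fold of at least 5 left 8 shNIT2 peaks and 4 shNT peaks, and 1 overlapping shNIT2 peak in place of 8, while 50% reciprocal overlap left 0. The lowest background over the shNIT2 peaks was 6.95 times the floor, beside the median of 20.8, and relative to the median of all other autosomal peaks that median became 12.1. The raised stretch was 12.6 Mb in shNIT2 cells at 2 times the floor, and at 5 times it was 7.53 Mb in shNIT2 cells and 2.11 Mb in shNT cells. No paired analysis was possible because each condition has 1 H3K14ac library. With no replicate, the spread between cultures is unknown. The floor was lower in the shNT list, and what depth contributes to the differences between the lists was not tested.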

Other observations

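Within the raised stretch, a second run of high background lay farther from MET. From 4.07 to 5.61 Mb past the MET start, 28 shNIT2 peaks had a background of at least 10 times the floor, with a median of 16.1 and a highest pileup of 222 fragments. In shNT cells 11 such peaks lay from 4.07 to 5.35 Mb, with a median of 12.5 and a highest pileup of 24 fragments. Both medians are over peaks chosen at 10 times the floor or more, so they cannot fall below it. Other shNT peaks in the same stretch lay under that level, from 8.51 to 9.58 times the floor. The genes there were named after their values were seen. ING3, a subunit of the NuA4 acetyltransferase complex, had the highest median background of all genes in the shNIT2 list, 23.4 times the floor over 3 peaks, and 12.5 over 1 peak in shNT cells. WNT16, which encodes a secreted WNT ligand, had 18.7 over 2 shNIT2 peaks, FAM3C had 16.0 over 5 shNIT2 peaks, and neither had a shNT peak. TSPAN12, which encodes a tetraspanin, had 11.3 over 1 shNT peak and no shNIT2 peak. KCND2, a potassium channel gene, had 18.3 over 1 shNIT2 peak and 8.46 over 6 shNT peaks.

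High background was placed differently in the lists as a whole. Of the 112 shNIT2 peaks with a background of at least 10 times the floor, 106 lay on chromosome 7, beside 63 of 919 such peaks in the shNT list. Of the 40 highest backgrounds, 39 lay on chromosome 7 in the shNIT2 list, 34 of them within 3 Mb of MET, and 0 in the shNT list.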
